A study of Sus scrofa with 20 samples.

Results

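Endothelial cells line the blood and lymph vessels of the gut wall, and 9 genes of these cells were followed here in the caecal mucosa of pigs. They comprised EPAS1, EDNRB, PECAM1, CDH5, VWF, KDR, FLT1, TEK and LYVE1. Each gene was represented by its brightest probeset, selected by the highest mean over all 20 pigs, so that the mean level chose the probeset and is given only as a description. Of the 9 genes, 6 had values, with 12 probesets among the 25092 probesets with values and 10567 gene symbols of the table. No values were held for KDR, FLT1 and TEK, which have 4, 3 and 2 probesets on the array, and these genes were not analysed here. Mucosa had been scraped from the tip of the caecum of 20 pigs of a Large White x Landrace cross, all slaughtered at about the same age, after residual feed intake had been calculated. High feed efficiency (low residual feed intake, 10 pigs) was compared with low feed efficiency (high residual feed intake, 10 pigs). The pigs came from the litters of 5 sows (1406, 1410, 1411, 1417 and 1435), which were penned by litter, and each litter gave 1 high and 1 low pig of each sex, and thus 10 pairs of 1 sow and sex. The pigs of a pair had been picked as the most divergent of their litter and sex, no treatment was applied to either group, and litter cannot be told apart from pen.

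The endothelium controls blood flow, the passage of fluid and cells, and the exchange of nutrients absorbed by the gut. PECAM1 (CD31) and CDH5 (VE-cadherin) are adhesion molecules of the contacts between endothelial cells, and PECAM1 is also carried by platelets and leukocytes. VWF is the clotting glycoprotein that endothelial cells store and secrete and that platelets also carry. EPAS1 encodes HIF-2 alpha, an oxygen-regulated transcription factor abundant in endothelium, which other cells use as well. EDNRB is a receptor for endothelins. On endothelium it clears endothelin from blood and leads to nitric oxide release, and in the developing gut, known from human and mouse, it is needed by the precursors of the enteric nervous system. LYVE1 is a hyaluronan receptor of lymphatic endothelium and of some tissue macrophages. KDR and FLT1 are receptors of vascular endothelial growth factors, and TEK is the angiopoietin receptor.

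On the Sscrofa11.1 genome, EPAS1 lies on chromosome 3 (94167759 to 94253662), EDNRB on chromosome 11 (50073300 to 50102879), PECAM1 on chromosome 12 (14667643 to 14723296), CDH5 on chromosome 6 (27108560 to 27142145), VWF on chromosome 5 (64516627 to 64655938) and LYVE1 on chromosome 2 (48937357 to 48954206). The 6 genes thus lie on 6 different chromosomes. Expression was measured as log2 values after robust multichip averaging (RMA), and the upper quartile of the arrays lay between 6.25 and 6.30, with a correlation of at least 0.942 between any pair of arrays. Values of different probesets are not on a common scale, so that each gene is compared between pigs and not with another gene. Of the 4 markers that define endothelium (PECAM1, CDH5, KDR and TEK), 2 had values, PECAM1 and CDH5, and both passed the filter on low means. Of 9 epithelial markers, 7 had values, and the summed linear signal of these was 16160 to 21064 in high and 17964 to 22207 in low feed efficiency pigs.

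The 6 genes differed in how far they varied between pigs. EPAS1 varied least over its range, with values between 7.41 and 8.23 (mean 7.84 ± 0.26, SD, n = 20), a 1.77-fold range. CDH5 lay between 5.73 and 6.75 (6.18 ± 0.26), a 2.04-fold range, and VWF between 5.62 and 6.94 (6.45 ± 0.33), a 2.50-fold range. EDNRB ranged from 3.92 to 5.30 (4.63 ± 0.39), which is 2.60-fold. Wider ranges were found for PECAM1, with values from 5.83 to 7.57 (6.50 ± 0.50), or 3.33-fold, and for LYVE1, with values from 2.54 to 4.74 (3.31 ± 0.54), or 4.58-fold. The highest LYVE1 value, 4.74, belonged to high feed efficiency pig 9 of sow 1435, whose littermates had at most 3.41, and the next value over all pigs was 4.30. The highest PECAM1 value, 7.57, belonged to high feed efficiency pig 2 of sow 1406, while the other high feed efficiency pigs had at most 6.75 and the low feed efficiency pigs up to 7.25.

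**Figure D1:**
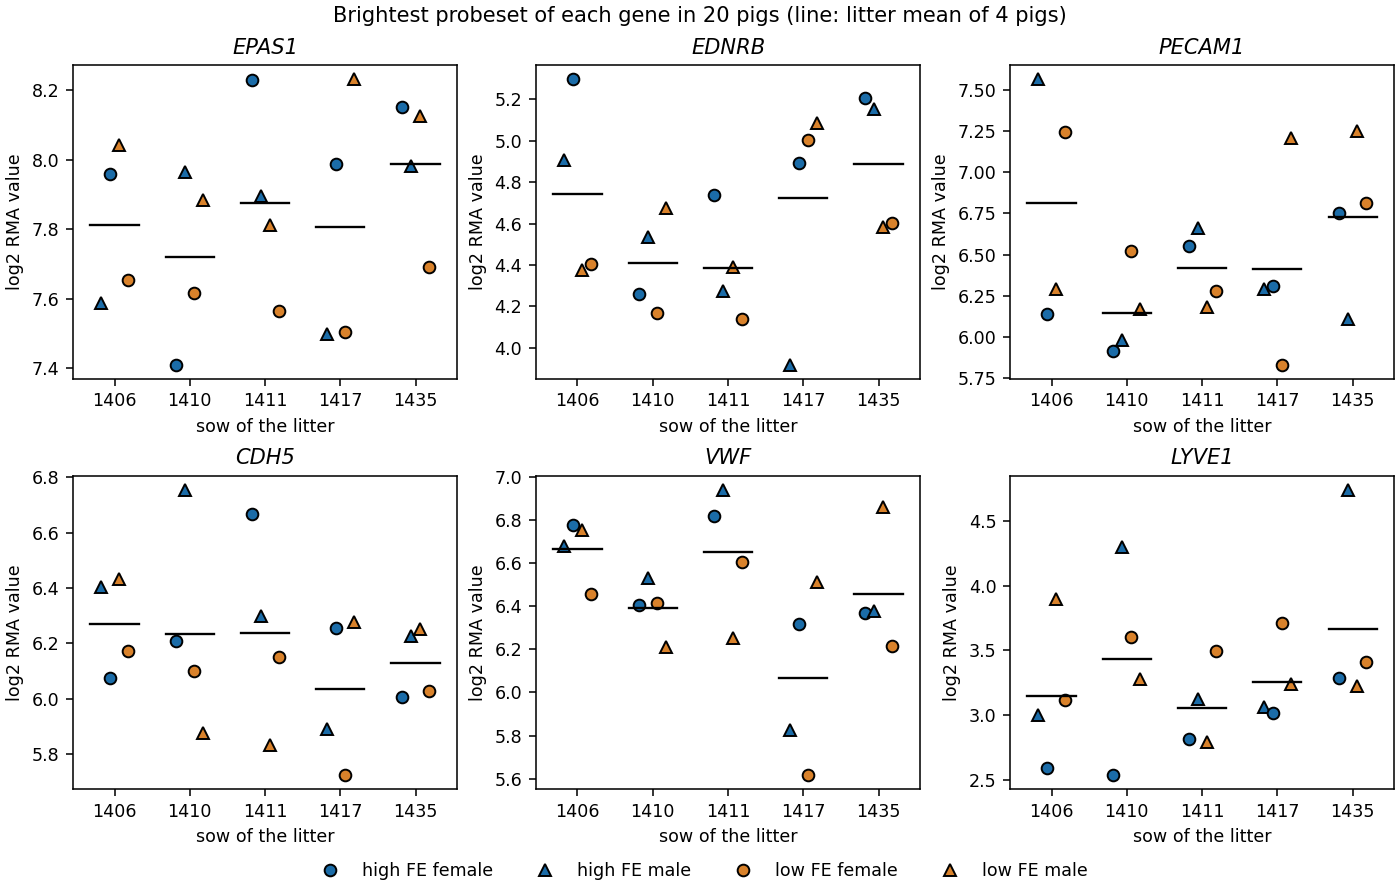
Log2 RMA value (y axis) of the brightest probeset of each of 6 genes in 20 pigs by the sow of the litter (x axis). Circles are females, triangles males, blue high and orange low feed efficiency, and black lines the mean of 4 littermates. VWF was lowest in the litter of sow 1417, and the high LYVE1 value of 4.74 stands apart in the litter of sow 1435.

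The other probesets of a gene followed the brightest one only in part. The 2 probesets of EPAS1, whose means of 7.84 and 7.83 decided narrowly which of them was used, varied together over the 20 pigs (Pearson r = 0.78), and the 3 probesets of CDH5 correlated at 0.59 to 0.62. For EDNRB the correlation of both probesets was 0.01, for PECAM1 0.07 and for LYVE1 −0.22. The second EDNRB probeset had a mean of 3.93 ± 0.92 (SD, n = 20) and ranged from 1.65 to 5.11, which is 11.0-fold. For these 3 genes a value of the brightest probeset describes that probeset only. VWF had 1 probeset. Both LYVE1 probesets were dim, with only 29.1% and 21.0% of all probesets dimmer by their mean. The lowest value of the second EDNRB probeset, 1.65, lay near 1.62, the bound of the filter on low means.

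Co-variation of the genes was described with Pearson r over the 20 pigs, which share a normalisation and come as 4 pigs from each of 5 litters. By the brightest probesets, the endothelial genes did not form 1 block, and other probesets gave other values. Among the brightest, CDH5 and VWF varied together, EPAS1 went moderately with EDNRB, VWF and CDH5, and LYVE1 went with none of the others. The 15 pairs of the 6 genes had a median r of 0.19, against 0.015 for all pairs of 10346 genes. Of the 15 pairs, 13 had an r above 0, against 51.8% of all gene pairs, and 5 had an r above 0.4, against 10.6%. The genes were chosen with earlier results of these data known, and the 15 pairs share the same 6 genes. These shares are thus a description only. The highest r was that of CDH5 and VWF (0.70, Spearman rho 0.73), and it was 0.68 after sow, feed efficiency and sex had been removed. By r with CDH5, VWF held rank 33 of 10345 genes, and CDH5 held rank 45 by r with VWF. EPAS1 correlated with EDNRB at 0.52, with VWF at 0.50 and with CDH5 at 0.44, and these became 0.57, 0.62 and 0.51 after removal of sow, feed efficiency and sex. Without the 2 pigs farthest from the median of EPAS1, its r with EDNRB was 0.38. The second EDNRB probeset had an r of 0.08 with the brightest and −0.03 with the second EPAS1 probeset. The second EPAS1 probeset had 0.37 with EDNRB, 0.50 with VWF and 0.21 with CDH5. With the second CDH5 probeset, however, the brightest EPAS1 probeset had an r of 0.77 and the second 0.71. The other two CDH5 probesets had an r of 0.67 and 0.61 with VWF. PECAM1 and VWF had an r of 0.40. EDNRB had an r of 0.01 with CDH5 and 0.03 with VWF, but 0.37 with the second CDH5 and 0.49 with the second PECAM1 probeset. LYVE1 had an r between −0.22 and 0.19 with the other 5 genes. The second PECAM1 probeset, unlike the brightest, had an r of 0.75 with EPAS1 and 0.68 with the second CDH5 probeset.

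**Figure D2:**
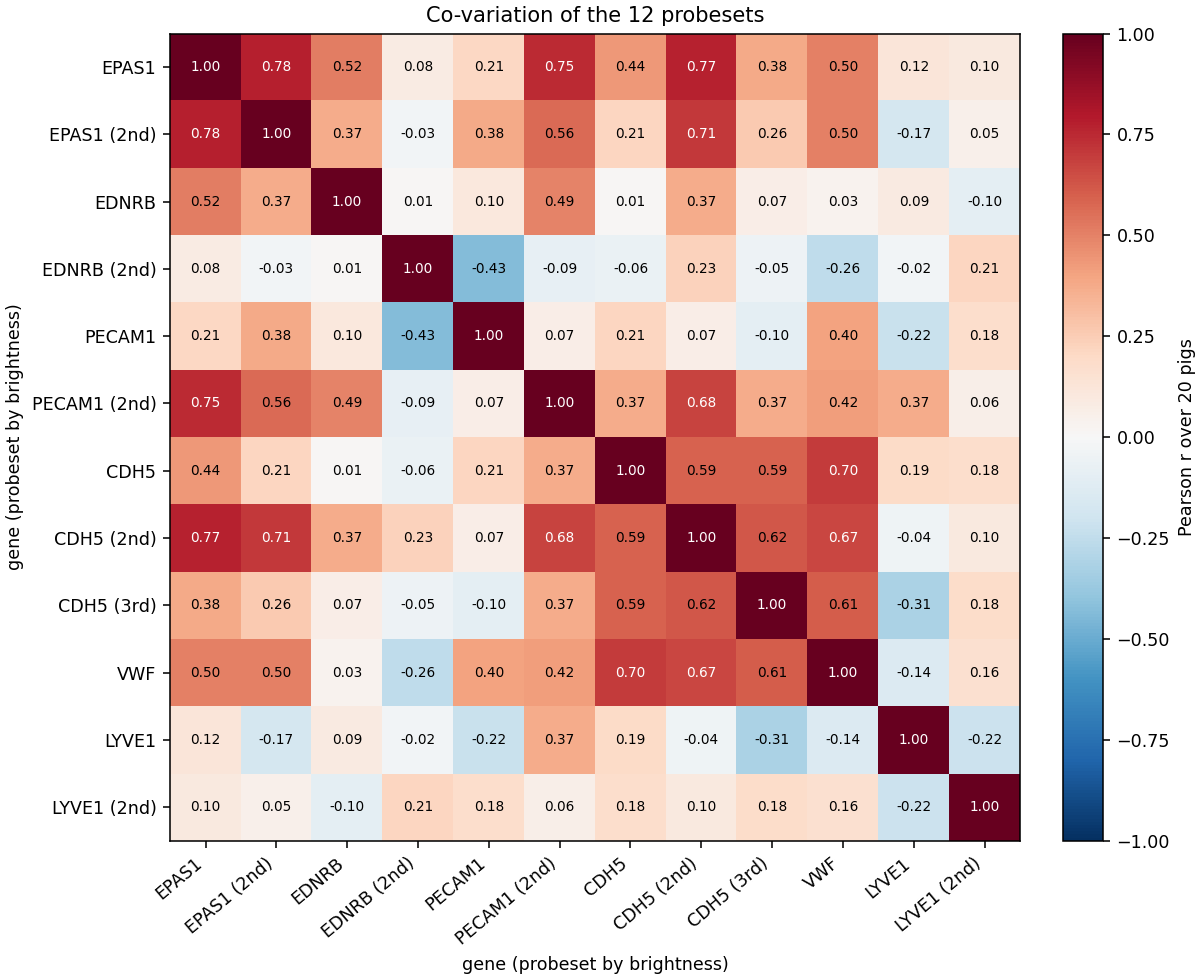
Pearson r over 20 pigs between the 12 probesets of the 6 genes, coloured from −1 (blue) to 1 (red), with 2nd and 3rd for the dimmer probesets of a gene. CDH5 and VWF reach 0.70 and both EPAS1 probesets 0.78, while the brightest LYVE1 probeset lies between −0.22 and 0.19 with those of the other genes.

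By the brightest probesets, VWF and CDH5 followed other endothelial genes most closely over the 20 pigs. A score was made as the mean of 23 of 40 listed endothelial genes that had values, none of them among the 9, each centred on its mean. VWF correlated with this score at 0.90 and CDH5 at 0.68 over the 20 pigs. PECAM1 reached 0.44 and EPAS1 0.39, while EDNRB had −0.19 and LYVE1 −0.25. The second probesets had 0.43 for EPAS1, −0.32 for EDNRB, 0.19 for PECAM1, 0.50 for CDH5 and 0.17 for LYVE1. The score was lowest in low feed efficiency pig 10 (−0.42) and highest in high feed efficiency pig 3 (0.32). Without both, a setting chosen after seeing the data, r was 0.86 for VWF, 0.46 for CDH5, 0.39 for PECAM1 and 0.09 for EPAS1. Without any 1 pig, the r of EPAS1 was 0.26 to 0.45. After removal of sow, feed efficiency and sex it was 0.50, and 0.55 for the second EPAS1 probeset. The same removal gave 0.86 for VWF, 0.67 for CDH5 and 0.63 for PECAM1, which thus lay near CDH5. It gave 0.24 for the second PECAM1 probeset, −0.11 for EDNRB and −0.19 for LYVE1. Counted gene by gene, 13 of the 23 genes had an r above 0.4 with VWF, against 15.2% of all genes, and 11 of 23 with CDH5, against 11.0%. For VWF the nearest of the 23 were PLVAP (r = 0.85), which forms the diaphragms of fenestrated endothelium, PODXL (0.76) and CD34 (0.73), and PLVAP was also the nearest to CDH5 (0.75). EPAS1 had 5 of 23 above 0.4, against 4.36% of all genes, among them EMCN (0.72), PODXL (0.69) and PLVAP (0.64). EDNRB and LYVE1 had 0 of 23, against 6.56% and 7.89%.

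**Figure D3:**
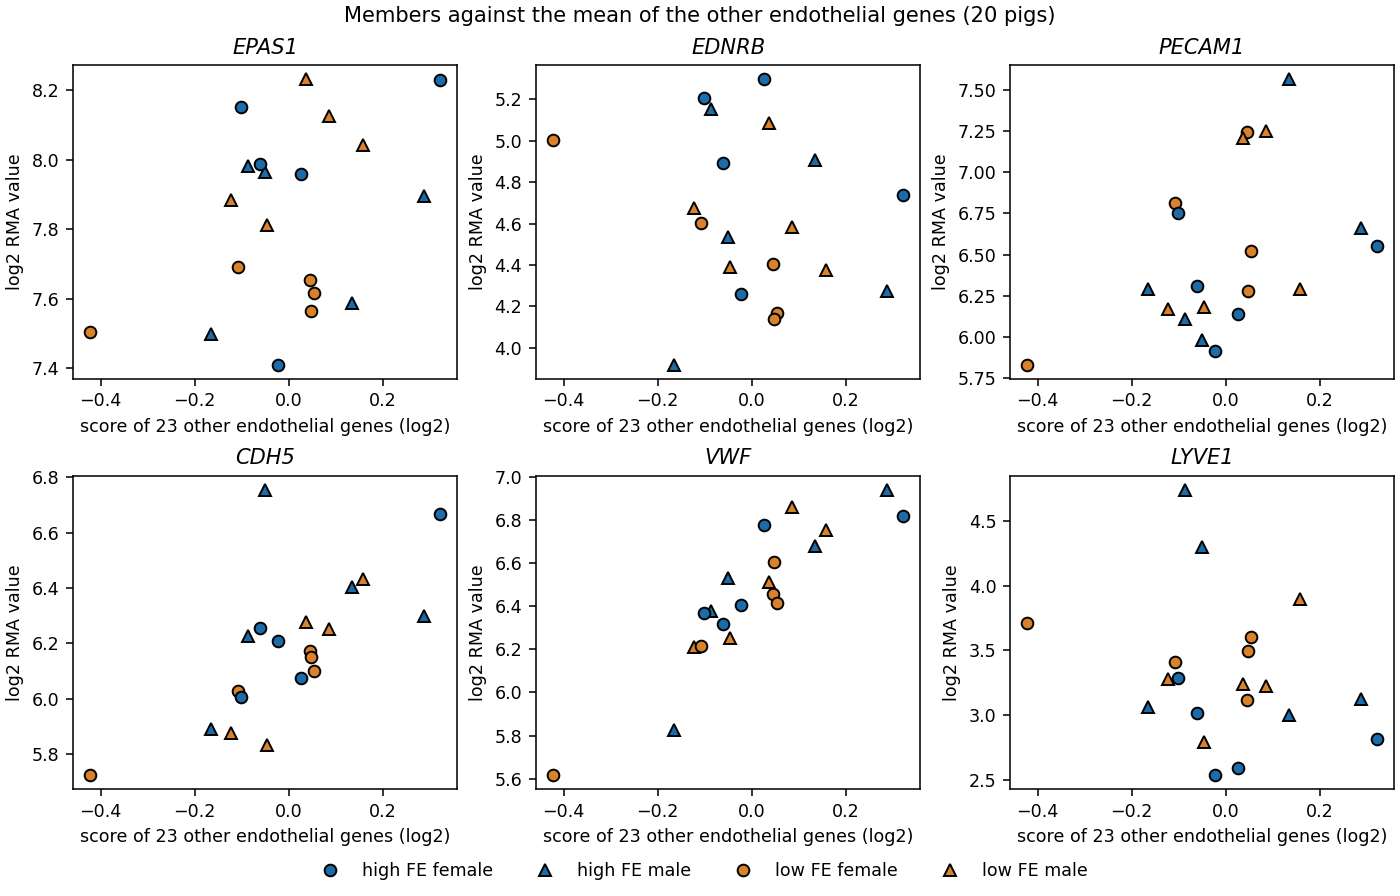
Log2 RMA value of each gene (y axis) against the mean of 23 other endothelial genes, each centred on its mean (x axis, log2), with 1 point per pig, circles for females, triangles for males, blue for high and orange for low feed efficiency. The points of VWF run along a line (r = 0.90), and those of EDNRB (−0.19) do not.

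The brightest probesets of EPAS1 and EDNRB had a higher r with some markers of other cells of the mucosa than with the score of the 23 endothelial genes. EPAS1 had an r of 0.79 with the score of 5 pericyte markers (0.75 to 0.85 without any 1 pig) and 0.64 with that of 9 fibroblast markers, and its second probeset 0.66 and 0.37. EDNRB had an r of 0.71 with 5 macrophage markers (0.67 to 0.78 without any 1 pig), 0.59 with 9 fibroblast markers and 0.59 with 20 genes of the hypoxia-inducible factor pathway. The second EDNRB probeset did not share this, with −0.10, 0.11 and −0.36 for the same lists. Counted gene by gene, the brightest EDNRB probeset had an r above 0.4 with 4 of 5 macrophage and 4 of 9 fibroblast markers. For the hypoxia-inducible factor pathway it was only 2 of 20 genes (median r 0.06), where the share over all genes was 6.56%. EPAS1, itself a factor of that pathway, had an r of 0.05 with the same 20 genes. Other vessel lists were also followed in part. With 6 venular adhesion genes, EPAS1 had an r of 0.53 and EDNRB 0.52, and their second probesets 0.12 and 0.16. With 10 lymphatic endothelial genes, EPAS1 had 0.53 and EDNRB 0.22, and their second probesets 0.42 and −0.13. VWF had an r of 0.76 with 10 lymphatic endothelial genes, 0.63 with pericyte and 0.62 with smooth muscle markers, and 0.38 with 5 platelet markers. After removal of sow, feed efficiency and sex these became 0.84, 0.72, 0.27 and 0.17. LYVE1, whose defining cells are lymphatic, had −0.09 with the lymphatic genes and −0.05 with the macrophage markers, and its second probeset 0.25 and 0.20. The second probesets of PECAM1 and CDH5 had an r of 0.70 and 0.84 with the pericyte markers, against 0.23 and 0.56 for the brightest. In such bulk mucosa, fewer cells of a type and less RNA per cell cannot be told apart, and the part of these cell types in the values of the 6 genes was not tested.

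**Figure D4:**
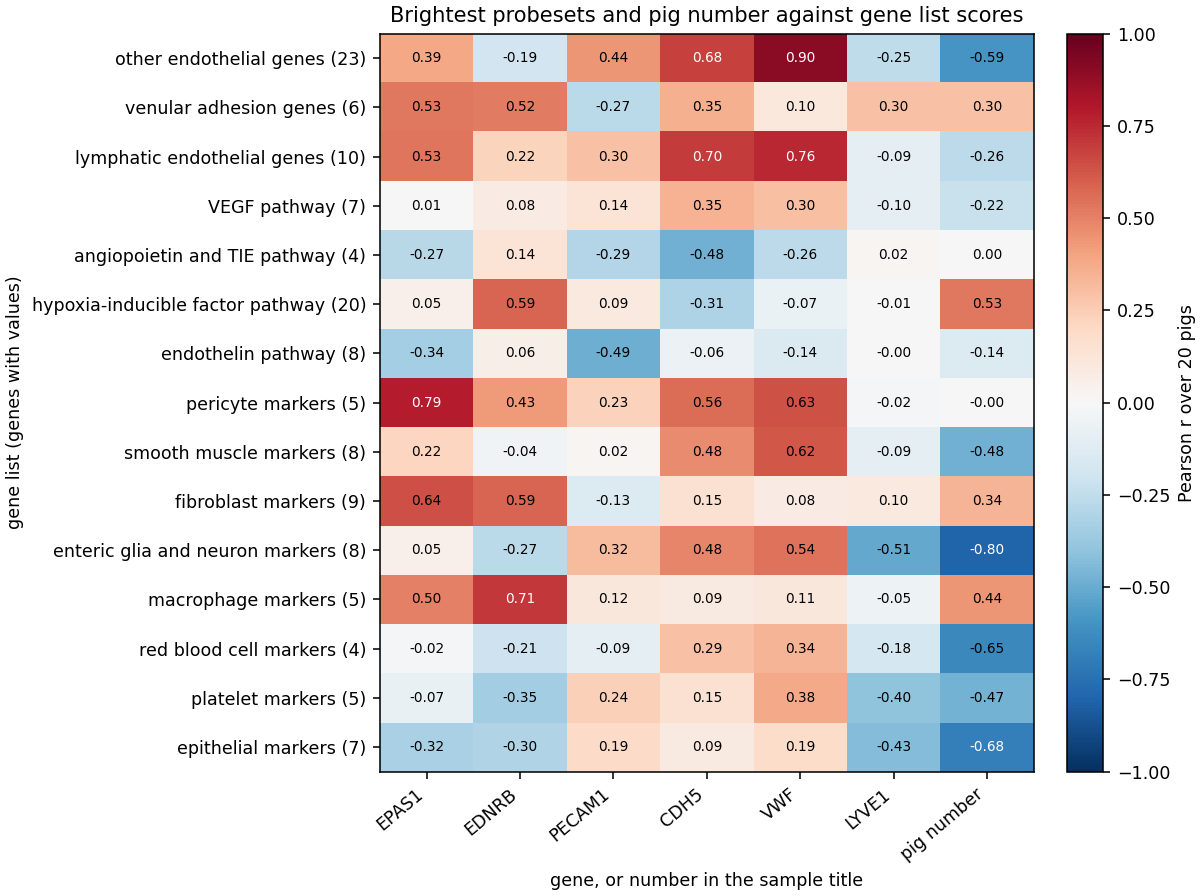
Pearson r over 20 pigs of the 6 genes, and of the number in the sample title, with the scores of 15 gene lists (rows, number of genes with values in brackets), coloured from −1 (blue) to 1 (red). VWF is highest with the other endothelial genes (0.90), EPAS1 with pericyte markers (0.79) and EDNRB with macrophage markers (0.71).

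Over all 10345 other genes, the 5 with the highest r with EPAS1 were COL4A1 (0.84), a collagen of basement membranes, COL12A1 (0.81), a fibril-associated collagen, IGFBP7 (0.78), a secreted binding protein of insulin-like growth factors, TGFBR3 (0.78), a co-receptor of transforming growth factor beta, and TIMP3 (0.75), an inhibitor of matrix metalloproteinases. Those nearest to EDNRB were MEF2A (0.80), a transcription factor, FILIP1L (0.76), ANXA1 (0.74), a phospholipid-binding protein, VCAN (0.74), a matrix proteoglycan, and GJA1 (0.73), a gap junction protein. For CDH5 they were TERF2IP (0.88), a telomere protein, GZF1 (0.82), EGFLAM (0.81), SELP (0.81), the adhesion molecule P-selectin of endothelium and platelets, and CCDC80 (0.80). For PECAM1 they were ASB6 (0.78), NOP56 (0.77), a nucleolar protein, ERICH1 (0.76), ZNF395 (0.74) and PCDH19 (0.69). None of the 9 genes was among these 20.

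The comparison of high with low feed efficiency pigs was the main question of the study. For none of the 6 genes did the brightest probeset pass the test used. Of the 6 genes, 0 were called by limma at an adjusted p under 0.05, where the share called over all 23140 probesets was 0%, and 0 had an unadjusted p under 0.05, where the share over all probesets was 4.48%. The differences lay between −0.15 and 0.19 on the log2 scale with a median of 0.08, against a median of 0.0080 over all 10038 genes tested, and 4 of 6 were above 0, against 52.7% of all genes.

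Of the transcription factor and the receptor, EPAS1 had 7.41, 7.96 and 8.23 (lowest, median and highest) in high and 7.50, 7.75 and 8.23 in low feed efficiency pigs. The groups overlapped over nearly their whole range, with a difference of 0.05 ± 0.12 (SE; 95% interval −0.20 to 0.31; adjusted p = 0.987), and 6 of 10 pairs had the higher value in the high pig. EDNRB had 3.92, 4.82 and 5.30 in high and 4.14, 4.49 and 5.09 in low feed efficiency pigs. Its difference was 0.18 ± 0.16 (95% interval −0.16 to 0.51; adjusted p = 0.980) with 6 of 10 pairs higher. The second EDNRB probeset differed in the opposite direction, by −0.62 ± 0.34 (adjusted p = 0.980), with 4 of 10 pairs higher.

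Of the junction genes, CDH5 had the difference farthest from 0 among the brightest probesets. Its values were 5.89, 6.24 and 6.75 in high and 5.73, 6.12 and 6.43 in low feed efficiency pigs, a difference of 0.19 ± 0.12 (95% interval −0.05 to 0.44; adjusted p = 0.980). The pairs were split, 5 of 10 being higher in the high pig. The third and dimmest CDH5 probeset differed by 0.26 ± 0.09, with 7 of 10 pairs higher, an unadjusted p of 0.0123 and an adjusted p of 0.980. An exact sign-flip permutation test over its 10 pairs gave p = 0.0352, two-sided and unadjusted. The same test gave 0.141 for the brightest and 0.5996 for the second CDH5 probeset, and 0.184 to 0.902 for the other 9 probesets. The adhesion molecule PECAM1 had 5.91, 6.30 and 7.57 in high and 5.83, 6.41 and 7.25 in low pigs, a difference of −0.15 ± 0.20 (95% interval −0.58 to 0.27; adjusted p = 0.980), with 4 of 10 pairs higher, while its second probeset differed by 0.08 ± 0.12. The clotting glycoprotein VWF had 5.82, 6.47 and 6.94 in high and 5.62, 6.43 and 6.86 in low pigs, a difference of 0.11 ± 0.12 (95% interval −0.14 to 0.37; adjusted p = 0.980), with 6 of 10 pairs higher. The hyaluronan receptor LYVE1 had 2.54, 3.04 and 4.74 in high and 2.79, 3.35 and 3.89 in low pigs, a difference of −0.13 ± 0.23 (95% interval −0.62 to 0.36; adjusted p = 0.982), with 3 of 10 pairs higher. In all 3 genes the ranges of the groups overlapped.

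Whether this difference was the same in both sexes was tested as an interaction, given here as the male minus the female difference. EPAS1 and LYVE1 had the smallest p of the 6 genes, with opposite signs, and none of the 6 passed the test after adjustment over all probesets. Of the 6, 0 were called (0% over all probesets) and 2 had an unadjusted p under 0.05 (4.11% over all probesets). EPAS1 had an interaction of −0.58 ± 0.21 (unadjusted p = 0.0136, adjusted p = 0.999). Its high females had 7.96, 7.41, 8.23, 7.99 and 8.15 in the order of the sow numbers, and the low females 7.65, 7.62, 7.57, 7.50 and 7.69. All high females but the one of sow 1410 thus lay above every low female. The high males had 7.59, 7.97, 7.89, 7.50 and 7.98, and the low males 8.04, 7.89, 7.81, 8.23 and 8.13, and these groups overlapped.

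The second EPAS1 probeset split by sex in every pair. The female pairs differed by 0.26, 0.15, 0.77, 0.55 and 0.34, again in the order of the sows, and the male pairs by −0.11, −0.44, −0.01, −0.52 and −0.43. All 5 female and none of 5 male pairs were higher in the high pig, with means of 0.42 ± 0.25 and −0.30 ± 0.23 (SD, 5 pairs each). Its interaction was −0.72 ± 0.16, with an unadjusted p of 4.1e-04 and an adjusted p of 0.999. The interaction kept its sign in both EPAS1 probesets without any single pig or litter. The number of the 6 genes with an unadjusted p under 0.05 was less stable, being 1 in place of 2 without any 1 litter.

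LYVE1 had an interaction of 0.98 ± 0.40 (unadjusted p = 0.0275, adjusted p = 0.999). The female pairs differed by −0.52, −1.06, −0.68, −0.70 and −0.12, and the male pairs by −0.89, 1.01, 0.34, −0.17 and 1.51. None of 5 female and 3 of 5 male pairs were thus higher in the high pig, and the male pairs spread over both directions. The second LYVE1 probeset had an interaction of −0.23 ± 0.28. EDNRB had −0.48 ± 0.32 in its brightest and −1.93 ± 0.52 (unadjusted p = 0.0019, adjusted p = 0.999) in its second probeset, in which 4 of 5 female and 0 of 5 male pairs were higher. CDH5 had −0.03 ± 0.24 in its brightest and −0.51 ± 0.17 (unadjusted p = 0.0080, adjusted p = 0.999) in its second probeset, with 5 of 5 female and 1 of 5 male pairs higher. VWF had −0.32 ± 0.24 and PECAM1 0.11 ± 0.43.

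**Figure D5:**
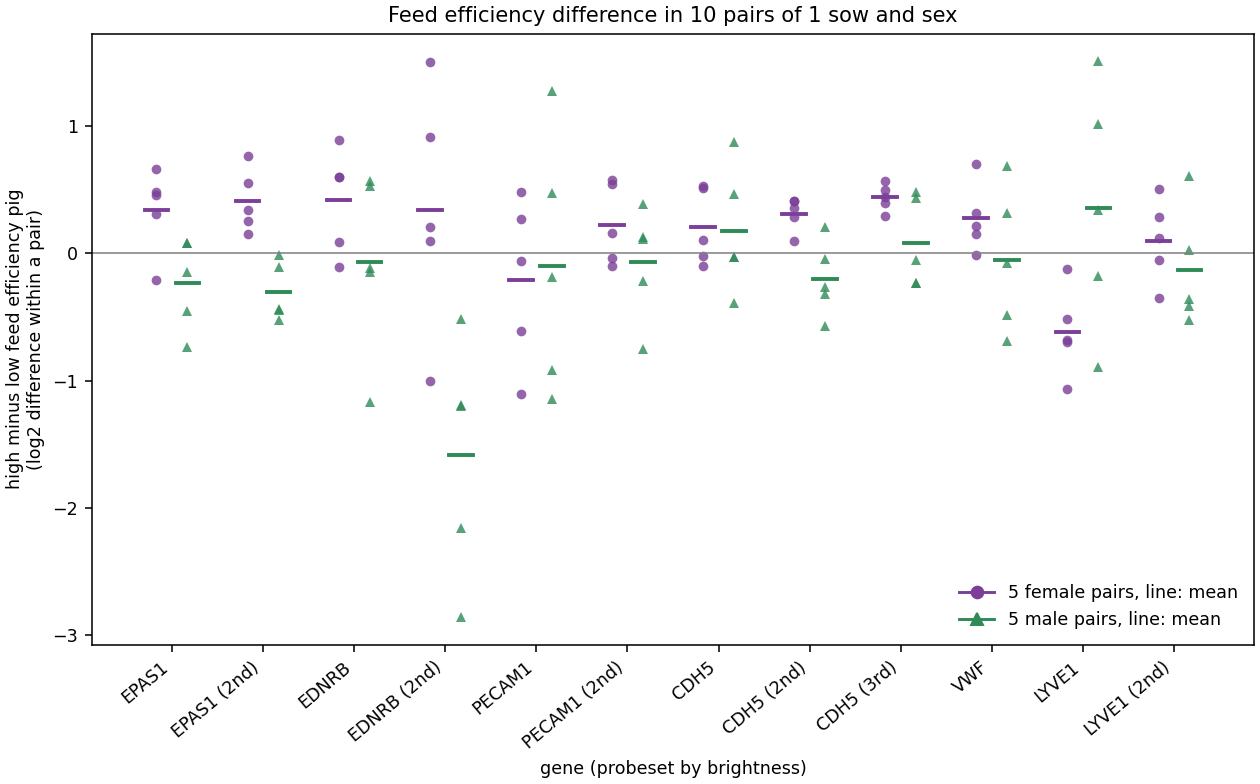
Log2 difference of the high minus the low feed efficiency pig (y axis) in 5 female pairs (purple circles) and 5 male pairs (green triangles) for the 12 probesets of the 6 genes (x axis), with lines for the mean of 5 pairs. In the second EPAS1 probeset all female pairs lie above 0 and all male pairs below it.

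Several lists of cell type markers and vessel genes had mostly the same sign as EPAS1 in this comparison, and others did not. The interaction was below 0 in 9 of 9 fibroblast markers (median −0.38) and above 0 in 1 of 5 pericyte markers (median −0.43), while 50.7% of all genes were above 0 with a median of 0.0041. Macrophage markers were above 0 in 1 of 5 (median −0.30), venular adhesion genes in 1 of 6 (median −0.24) and lymphatic endothelial genes in 2 of 10 (median −0.11). An unadjusted p under 0.05 was found for 0 of 9 fibroblast, 1 of 5 pericyte and 2 of 5 macrophage markers, against 3.87% of all genes, and none of these markers was called. The other endothelial genes had a median of −0.04, with 9 of 23 above 0. Smooth muscle markers were above 0 in 5 of 8 (median 0.10) and epithelial markers in 4 of 7 (median 0.01). Enteric glia and neuron markers were above 0 in 3 of 8 (median −0.02). Of these 8, 2 had an unadjusted p under 0.05, both below 0, against the same 3.87%. Red blood cell markers were above 0 in 1 of 3 (median −0.34) and platelet markers in 2 of 5 (median −0.24). An unadjusted p under 0.05 was found for 0 of 3 and 1 of 5 of these, and 0 were called. The part of these cell types in the EPAS1 values was not tested.

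Between males and females as such, adjusted for litter and feed efficiency, no gene of the 6 passed the test. Of the 6 genes, 0 were called (0% over all probesets) and 0 had an unadjusted p under 0.05 (4.29% over all probesets). The male minus female differences lay between −0.08 ± 0.17 for EDNRB and 0.31 ± 0.23 for LYVE1, each with an adjusted p of 0.9999. LYVE1 had 2.54, 3.20 and 3.71 in females and 2.79, 3.23 and 4.74 in males (lowest, median and highest), and these ranges overlapped.

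Among the litters, VWF had the smallest p of the 6 genes, and it was not called. Of the 6 genes, 0 were called (0.126% over all 23837 probesets) and 1, VWF, had an unadjusted p under 0.05 (16.1% over all probesets). The 4 pigs of sow 1417 had VWF values from 5.62 to 6.51 with a mean of 6.07 ± 0.42 (SD, n = 4). The litter of sow 1410 followed with 6.39 ± 0.13 and that of sow 1435 with 6.45 ± 0.28. The litters of sows 1411 and 1406 were highest, with 6.65 ± 0.30 and 6.67 ± 0.15, and values of 6.45 to 6.77 in the latter. Neighbours in this order overlapped. The litter accounted for 45.3% of the variance of VWF (moderated F = 3.06, unadjusted p = 0.0471, adjusted p = 0.305), and the unadjusted p was no longer under 0.05 when pig number was added, when arrays were weighted or when arrays were centred on their median. Without low feed efficiency pig 10, whose 5.62 was the lowest value, the adjusted p was 0.509. The other 5 genes had adjusted p between 0.548 for EDNRB and 0.842 for EPAS1. Litter means ranged from 4.39 ± 0.26 (sow 1411) to 4.89 ± 0.34 (sow 1435) for EDNRB and from 7.72 ± 0.25 (sow 1410) to 7.99 ± 0.21 (sow 1435) for EPAS1. For PECAM1 they ranged from 6.15 ± 0.27 (sow 1410) to 6.81 ± 0.70 (sow 1406), where the 4 pigs lay between 6.14 and 7.57.

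The sample titles carry a pig number from 401 to 440, whose meaning is not given, and its slope was tested within litters, adjusted for feed efficiency and sex. EDNRB had the smallest p of the 6 genes. Of the 6 genes, 0 were called (0.0755% over all probesets) and 1, EDNRB, had an unadjusted p under 0.05 (17.9% over all probesets). The slope of EDNRB was 0.34 ± 0.14 on the log2 scale for 10 numbers (95% interval 0.05 to 0.63; unadjusted p = 0.0242, adjusted p = 0.211), and its r with the number over the 20 pigs was 0.50. The slope of PECAM1 was −0.32 ± 0.19 (adjusted p = 0.371), and that of the second EDNRB probeset 0.15 ± 0.34. Over the 20 pigs, the scores of several cell types also went with the number. Unlike the slope, these r values and that of EDNRB had no term for litter. The number differs between litters, so that number and litter are mixed in them. The r was −0.80 for enteric glia and neuron markers, −0.68 for epithelial markers, −0.65 for red blood cell markers and −0.59 for the other endothelial genes. It was 0.53 for the hypoxia-inducible factor pathway, 0.44 for macrophage and 0.34 for fibroblast markers. Their part in the slope of EDNRB was not tested.

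The pathways around the 9 genes were read from gene lists, 1 probeset per gene. No gene of these lists was called for feed efficiency or for sow. In the vascular endothelial growth factor list, 7 of 11 genes had values. PLCG1, a phospholipase that relays the receptor signal, had a difference between the feed efficiency groups of 0.17 ± 0.07 (unadjusted p = 0.0368, adjusted p = 0.980), and the growth factor PGF had litter means between 6.95 ± 0.33 (sow 1435) and 8.04 ± 0.27 (sow 1406; unadjusted p = 0.0121, adjusted p = 0.214). In the angiopoietin list, 4 of 8 genes had values and FOXO1, a transcription factor held in check by TEK signalling, had litter means from 5.90 ± 0.18 (sow 1406) to 6.70 ± 0.26 (sow 1435; adjusted p = 0.252). In the hypoxia-inducible factor list, 20 of 23 genes had values, of which 0 had an unadjusted p under 0.05 for feed efficiency, against 4.32% of all genes, and 4 for sow, against 16.5% of all genes. EGLN1 and EGLN3, prolyl hydroxylases that mark HIF proteins for breakdown, were among the latter, with EGLN1 litter means from 6.61 ± 0.26 (sow 1411) to 7.20 ± 0.10 (sow 1435; adjusted p = 0.265).

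In the endothelin list, 8 of 10 genes had values. EDNRA, the other endothelin receptor, ECE2, an endothelin-converting enzyme, and GNAQ, a G protein of receptor signalling, had unadjusted p under 0.05 for sow and adjusted p between 0.285 and 0.305, 3 of 8 genes against 16.5% of all genes. Their differences between the feed efficiency groups were 0.04 ± 0.10, 0.25 ± 0.16 and −0.10 ± 0.07. Of the 23 other endothelial genes, 17 had a difference above 0 for high minus low feed efficiency, against 52.7% of all genes, with a median of 0.02. Only RAMP2, a receptor partner of the vascular peptide adrenomedullin, had an unadjusted p under 0.05 among them (1 of 23, against 4.32% of all genes), with a difference of 0.29 ± 0.13 (adjusted p = 0.980). Of 10 lymphatic endothelial genes, 1 had an unadjusted p under 0.05, against the same 4.32%, the scavenger receptor STAB1, which macrophages carry too, with 5.57 ± 0.26 in high and 5.20 ± 0.32 in low feed efficiency pigs (SD, 10 pigs each; difference 0.37 ± 0.12, adjusted p = 0.980). All 5 macrophage markers with values had a difference above 0, with a median of 0.19, and 2 of the 5 had an unadjusted p under 0.05, against the same 4.32%. Whether they bear on STAB1 was not tested.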

How the data were processed

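Total RNA of caecal mucosa from 20 pigs was hybridised to the Affymetrix porcine snowball array (1 array per pig). The authors deposited log2 values after RMA, which corrects background, equalises the distribution of intensities between arrays and summarises probes per probeset, and small differences of dim probesets can be compressed by it. According to the study's methods, probes were assigned with a custom layout on Sscrofa11.1, and the submitters' processing notes name GCOS 1.1.1. The labels and the methods name different RNA reagents and labelling kits. Probesets were named from the platform annotation, which is older than the layout, with 331 symbols replaced through RefSeq synonyms. Of 47845 probesets, 25092 had values, and 0 columns were unmatched.

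The limma package (version 3.58.1, R 4.3.3) was used with lmFit and eBayes, two-sided, with Benjamini-Hochberg adjustment over all probesets tested, and figures were drawn with matplotlib. Sow was a fixed factor, as in the study, and slaughter batch, which the study also modelled, is not in the labels. Probesets with a mean under the 5% quantile (1.62) were removed, and those with an SD over the 95% quantile in both groups for feed efficiency and its interaction. An adjusted p under 0.05 was called. Slopes are per 10 pig numbers. Scores of lists are means of centred log2 values, and correlations carry no test. The fits were tested on simulated data. Alternatives comprised other covariates, blocks, filters, weights and centring, and leaving out each pig or litter. All members were named, together with the 3 genes of each pathway list with the smallest p for feed efficiency or sow, of which a part is printed, and the 5 genes most like EPAS1, EDNRB, CDH5 and PECAM1; genes printed beside them (the nearest of the 23 endothelial genes) were picked after their values were seen. The members and lists were chosen with earlier results of these data known. Pigs are separate animals, their number limits the precision, and no sequence table was used.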

Additional observations from a re-analysis of the deposited data

Results flagged for a closer look

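In 84 groups (the 12 probesets in both feed efficiency groups and in the 5 litters), 7 held a pig far from the others by Dixon's criterion, which chance alone gives in about 1 of 20 groups. The PECAM1 value of 7.57 in high feed efficiency pig 2 stood apart in the high group, where the next value was 6.75. The VWF value of 5.62 in low feed efficiency pig 10 stood below the next low feed efficiency pig at 6.21, and the LYVE1 value of 4.74 in high feed efficiency pig 9 stood above its littermates (sow 1435), of which the next had 3.41. High feed efficiency pig 7 stood apart with EDNRB in the litter of sow 1417 (3.92, next 4.90) and with the second CDH5 probeset in the high group (5.47, next 5.79). In the second probesets, EPAS1 was 7.35 in low feed efficiency pig 5 (sow 1411, next 8.005) and EDNRB 2.41 in low feed efficiency pig 2 (low group, next 3.85). The second EPAS1 probeset was flagged because all 5 female pairs lay above 0 and all 5 male pairs below it. This split is the rule that picked it and lends it no further weight. Its interaction of −0.72 was not called (adjusted p = 0.999, limma).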

How the results depend on the processing

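No member was called in any comparison under any alternative that was run. The number of the 6 genes with an unadjusted p under 0.05 changed as follows. For sow it was 0 in place of 1 with array weights, with arrays centred on their median and with pig number added. Leaving out 1 pig or litter gave 0 to 1 for feed efficiency (1 without high feed efficiency pig 7 or the litter of sow 1417), 0 to 1 for sow, 1 to 2 for the interaction and 0 to 2 for pig number. For the interaction, 6 single pigs and each of the 5 litters gave 1 in place of 2. For sow, 14 single pigs and the litters of sows 1406 and 1411 each gave 0. For pig number, leaving out high feed efficiency pig 5 or 7, low feed efficiency pig 6, or the litter of sow 1406 or 1435 gave 0, while high or low feed efficiency pig 1 gave 2. The median r of the 15 gene pairs was 0.11 to 0.22 without 1 pig.

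The feed efficiency difference turned in the second probeset of EDNRB (−0.62) and of PECAM1 (0.0793), and without 1 pig or litter in EPAS1 (−0.0260 to 0.118) and LYVE1 (−0.333 to 0.0162). Without 1 pig or litter it was −0.0251 to 0.117 in the second probeset of EPAS1 and −0.111 to 0.0891 in that of LYVE1. The sex difference was −0.200 to 0.050002 for EDNRB and −0.0021 to 0.24 for PECAM1, and the interaction −0.46 to 0.48 for PECAM1 and −0.23 to 0.20 for CDH5. The cause of these changes was not tested. With the 10 pairs of 1 sow and sex as a block, 0 of 6 genes were called for feed efficiency. The number of arrays limits the precision.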
